A study of Homo sapiens with 45 samples.

Results

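The 9 genes described here, of 28278 names in the RNA count table, encode the enzymes that make serine and pass its carbon into folate: PHGDH, PSAT1, PSPH, SHMT1, SHMT2, MTHFD1, MTHFD2, MTHFD1L and ALDH1L2. They were matched by symbol. PHGDH and PSAT1 were selected on their measured rise after HNRNPK siRNA against the siNTC5 control, so their values in that contrast, and in contrasts with the Scramble libraries that reuse its samples, are given as a description with no test. Contrasts between library kits also use those samples, and there the tests of PHGDH and PSAT1 are printed with that limit. The other 7 belong by function and keep the test.

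The RNA came from HCT116, a human colon cancer cell line, and every culture had been transfected with siRNA at 25 nM for 72 hours, so there is no untransfected group. HNRNPK encodes hnRNP K, which binds cytosine-rich stretches of RNA and DNA. A group of 4 libraries received siRNA against HNRNPK (siHNRNPK) and another 4 a nontargeting siRNA (siNTC5). In each of these groups, replicates 1 and 2 were made with the TruSeq stranded mRNA kit and replicates 3 and 4 with the Illumina Stranded mRNA Ligation kit. The Scramble group held 2 more libraries with a nontargeting siRNA, made with TruSeq, whose RNA was purified with another kit (RNeasy in place of Maxwell) and whose counts came as separate tables. The knockdown is transient and in a single line, and no label says that replicates were separate cultures, so p-values measure only the spread between these libraries, which may be technical.

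Total counts ran from 12107280 to 23633851 in the 8 libraries of siNTC5 and siHNRNPK, and were 59209169 and 55007171 in Scramble. HNRNPK itself lay between 814 and 967 CPM (counts scaled to library size, after TMM normalisation) in siNTC5 and between 157 and 250 in siHNRNPK, which is -2.17 ± 0.06 (SE) as a log2 fold change. On the scale fitted to all 10 RNA libraries, it was 815 and 851 CPM in Scramble. Of 10 colon epithelial markers, 6 were at 1 CPM or more in every siNTC5 library and every siHNRNPK library, while KRT20 was at 0 in both groups. Their summed level was 2698 to 3131 CPM in siNTC5, 4407 to 5403 in siHNRNPK and 4163 to 4268 in Scramble, with KRT8 at 199% and KRT18 at 266% of the siNTC5 mean in siHNRNPK but KRT19 at 41.3%, each with no overlap between these 2 groups. The 11 markers of blood, stromal, vascular and muscle cells summed in the same order of groups to 72.2 to 116, 105 to 156 and 110 to 119 CPM, with CD3E at 0 in every library. The part of these shifts in the results below was not tested.

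Serine synthesis branches off glycolysis at 3-phosphoglycerate. PHGDH oxidises it to 3-phosphohydroxypyruvate, PSAT1 transfers an amino group from glutamate to give phosphoserine, and PSPH removes the phosphate. SHMT1 in the cytosol and SHMT2 in mitochondria split serine into glycine and a carbon unit carried on tetrahydrofolate. In mitochondria MTHFD2 and ALDH1L2 oxidise this unit and MTHFD1L releases it as formate, while MTHFD1 handles it in the cytosol. Several of these genes are textbook targets of ATF4, the transcription factor of the amino acid response, and the pathway is known to feed nucleotide synthesis in growing colon cancer cells.

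The 250 bases before the start of PHGDH, PSAT1 and MTHFD2 are shown because these members had the largest differences from siNTC5. They come from the RefSeq promoter table of GRCh38.p14, all on the plus strand, at chr1:119711684-119711933, chr9:78296875-78297124 and chr2:74198365-74198614. Capitals mark CCAAT, the core of the box bound by NF-Y.
PHGDH: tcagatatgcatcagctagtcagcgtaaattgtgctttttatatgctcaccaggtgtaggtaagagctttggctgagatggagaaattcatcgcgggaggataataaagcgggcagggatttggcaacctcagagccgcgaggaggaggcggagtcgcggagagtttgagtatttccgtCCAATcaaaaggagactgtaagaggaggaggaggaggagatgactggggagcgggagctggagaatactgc
PSAT1: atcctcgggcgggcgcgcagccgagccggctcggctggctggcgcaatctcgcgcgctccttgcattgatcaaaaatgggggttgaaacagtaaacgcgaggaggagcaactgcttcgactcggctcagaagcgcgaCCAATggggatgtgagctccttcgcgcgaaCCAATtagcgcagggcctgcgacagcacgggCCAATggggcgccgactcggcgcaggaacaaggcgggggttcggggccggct
MTHFD2: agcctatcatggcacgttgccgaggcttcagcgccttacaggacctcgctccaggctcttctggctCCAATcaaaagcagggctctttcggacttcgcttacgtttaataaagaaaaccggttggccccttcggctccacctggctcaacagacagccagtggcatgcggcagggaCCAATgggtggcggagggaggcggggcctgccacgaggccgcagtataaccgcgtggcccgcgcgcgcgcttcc

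The table held 9 promoters for 6 of the members, 4 of them for MTHFD1L and 1 for each of the others, with no entry matched for PSPH, SHMT2 and ALDH1L2. TGATGNAA, the core of the element bound by ATF4 with C/EBP partners, was searched on both strands from 250 bases before to 50 after each start. It was found in 3 of the 9 promoters, which are overlapping promoters of MTHFD1L that share a single site, and in 3.6% of all 35116 promoters in the table. The match is shown in capitals in 30 bases at chr6:150866346-150866375, and it does not overlap the other motifs searched.
MTHFD1L: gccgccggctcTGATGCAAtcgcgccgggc

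CACGTG, the E-box read by MYC among others, stood in 4 of the 9 promoters, that of MTHFD1 and the same 3 of MTHFD1L, and in 7.3% of all promoters. CCAAT was added after the letters had been seen, and it was found in 8 of the 9 promoters, the 3 overlapping ones of MTHFD1L among them, against 34.6% of all promoters. PHGDH held it once, 71 bases before the start, and PSAT1 held it 3 times between 113 and 48 bases before the start. These matches are letters in a window and say nothing about binding.

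PHGDH spans chr1:119711934-119744215 and PSAT1 chr9:78297125-78330093 (GRCh38.p14), and neither overlaps another annotated gene. PHGDH stood at 72.5, 71.4, 112 and 107 CPM in siNTC5 replicates 1 to 4 and at 230, 228, 238 and 260 CPM in siHNRNPK replicates 1 to 4. The lowest knockdown library was above the highest control by a wide margin, and the mean was 2.64 times that of siNTC5. The fitted log2 fold change was 1.43 ± 0.07 (SE, n = 4 and 4), given without a test. As in all such bulk values, more cells with the transcript and more transcript per cell cannot be told apart.

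PSAT1 was at 127, 131, 200 and 186 CPM in siNTC5 and at 432, 440, 425 and 416 CPM in siHNRNPK. Again the groups did not overlap, the mean was 2.66 times that of siNTC5, and the fitted difference was 1.44 ± 0.09 (log2, SE), a description too. In both genes the SD over the 4 libraries of a group, both kits together, was larger in siNTC5. It was 37.3 CPM in siNTC5 and 10.3 CPM in siHNRNPK for PSAT1, and 21.6 and 14.7 CPM for PHGDH. In siNTC5 most of this was a step between kits, described below. Within a kit, the PHGDH pair furthest apart was in siHNRNPK, at 238 and 260 CPM in Ligation libraries.

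PSPH, the last enzyme of serine synthesis (chr7:56011064-56051444), had a smaller difference. It was at 30.5, 32.2, 35.7 and 34.7 CPM in siNTC5 and at 41.7, 44.9, 42.6 and 43.4 CPM in siHNRNPK, with all 4 knockdown libraries above all controls. How many of all genes separate the groups in this way was not counted. The difference was 0.38 ± 0.06 (log2, SE), past the threshold with an adjusted p of 4.0e-05 in edgeR. A result counts as called here when the adjusted p, by Benjamini-Hochberg over all genes tested, is under 0.05. PSPH has a pseudogene copy, PSPHP1, on the same chromosome, and how reads that match several places were counted is not given in the sources used here.

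SHMT2, the mitochondrial serine hydroxymethyltransferase (chr12:57229711-57234935), did not separate the groups. It was at 301, 331, 280 and 292 CPM in siNTC5 and at 331, 320, 269 and 316 CPM in siHNRNPK, so that 1 knockdown library lay above every control and 1 below every control. The fitted difference was 0.04 ± 0.05 (log2, SE; adjusted p 0.52 by edgeR).

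SHMT1, its cytosolic counterpart (chr17:18327873-18363550), had 1 count in total over the 8 libraries, in siHNRNPK replicate 2, and did not pass the filter on low counts. In the separate Scramble tables it had 2021 and 1691 counts, or 40.5 and 36.7 CPM. A reading of 3 or fewer counts over the 8 libraries beside at least 30 CPM in both Scramble libraries was seen for 117 of 6075 names (1.93%), and the reverse for 1 of 5415. The tables were counted separately, and the submitters' processing notes name hg19 beside hg38 for Scramble alone, so no fold is given and SHMT1 is not read as absent from these cells.

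MTHFD2, the mitochondrial dehydrogenase and cyclohydrolase (chr2:74198615-74217565), had the largest difference among the members not chosen for their rise. It was at 357, 364, 420 and 402 CPM in siNTC5 and at 822, 849, 860 and 828.9 CPM in siHNRNPK. All 4 knockdown libraries were at close to the same level and far above the controls. The difference was 1.13 ± 0.04 (log2, SE; adjusted p 1.3e-13 by edgeR). Its span overlaps that of SLC4A5, and whether counting used strand is not given in the sources used here.

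MTHFD1L, which releases formate from the mitochondrial carrier (chr6:150865702-151101887), rose by a smaller step. It was at 147, 161, 148 and 142 CPM in siNTC5 and within 176 to 180 CPM in all 4 siHNRNPK libraries, above every control. That is a log2 difference of 0.25 ± 0.05 (SE), and the adjusted p in edgeR was 6.9e-05.

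MTHFD1, the cytosolic enzyme that joins 3 folate activities (chr14:64388353-64460025), went the other way. It was at 213, 241, 190 and 185 CPM in siNTC5 and at 164, 166, 138 and 146 CPM in siHNRNPK, where every library lay below every control. The fitted difference was -0.43 ± 0.05 (log2, SE; adjusted p 1.2e-07 by edgeR). Its span overlaps ZBTB25.

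ALDH1L2, the mitochondrial enzyme that oxidises formyl-tetrahydrofolate (chr12:105019790-105084458), was near the limit of these libraries with 30 to 74 counts each. It was at 1.84, 3.09, 2.73 and 3.56 CPM in siNTC5 and at 2.97, 3.42, 2.53 and 2.97 CPM in siHNRNPK, the knockdown values falling wholly inside the range of the controls. Its difference was 0.08 ± 0.21 (log2, SE; adjusted p 0.76 by edgeR), so a difference of this size was not detectable at this depth.

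**Figure D1:**
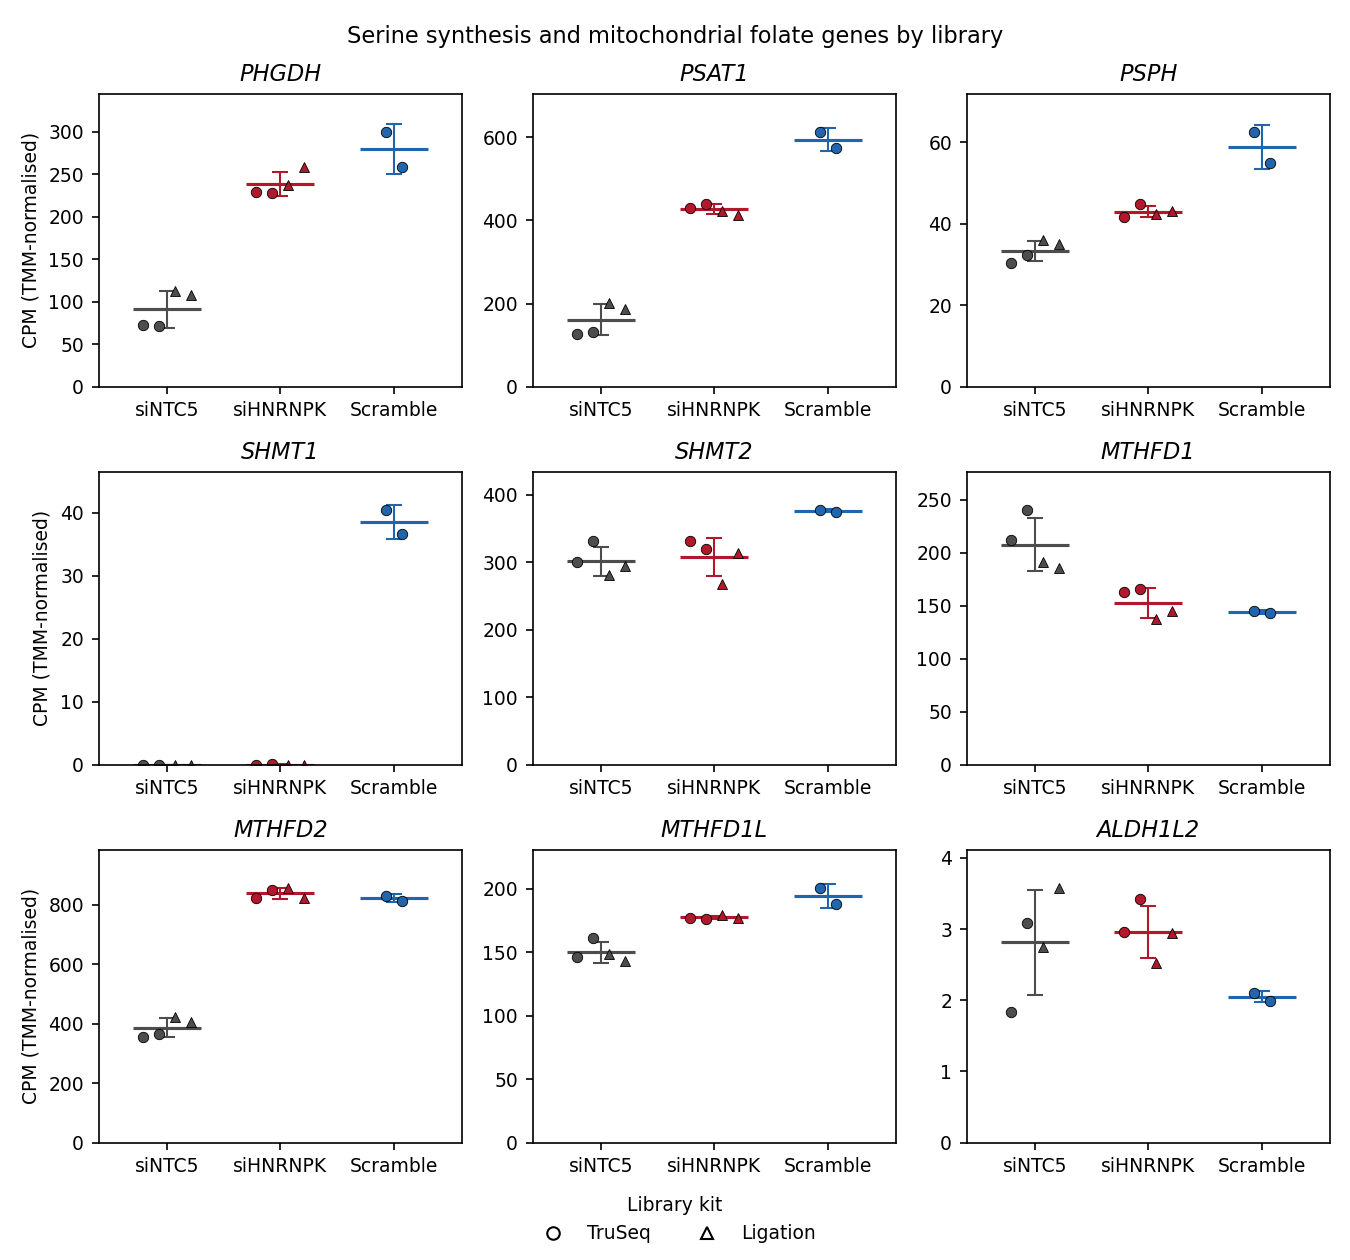
CPM of each member (TMM-normalised over all 10 RNA libraries, linear axes from 0) in siNTC5, siHNRNPK and Scramble libraries; points are libraries, circles TruSeq and triangles Ligation, with the group mean as a line and its SD as a bar. PHGDH, PSAT1 and MTHFD2 are low in siNTC5 alone, and SHMT1 has counts in Scramble only apart from 1 count in siHNRNPK replicate 2.

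Of the 7 members not chosen for their rise, 6 were tested and 4 were called after HNRNPK siRNA, with PSPH, MTHFD2 and MTHFD1L higher and MTHFD1 lower. Across all genes 71.5% of 13933 were called, 35.5% higher and 36.1% lower, so a call is the common state in this comparison. Groups without overlap, given above for members and keratins, were not counted over all genes and are a description only. For PHGDH and PSAT1 the lack of overlap also goes with their selection. The size of MTHFD2 was less common: where the log2 fold change also had to reach 1 in size, 2195 of the 13933 genes were called. MTHFD2 was the only one of these 6 tested members, which is near the share of all genes. SHMT2 and ALDH1L2 were among the genes not called, and SHMT1 was not tested.

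Over the 8 libraries, log2 CPM of PHGDH and PSAT1 had a Pearson r of 0.995, and MTHFD2 had 0.981 with PHGDH and 0.987 with PSAT1. PSPH followed them with 0.981 and 0.987, while MTHFD1 ran opposite to PHGDH at -0.937. SHMT2 had 0.015 with PHGDH. These coefficients describe 8 libraries that share 2 treatments and 2 kits, and carry no p.

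The 2 kits were run on replicates 1 and 2 and on replicates 3 and 4, so kit and round cannot be told apart. PHGDH in TruSeq controls was 72.5 and 71.4 CPM against 112 and 107 CPM in Ligation controls, while its knockdown libraries were at 230 and 228 against 238 and 260 CPM. The step between kits thus sat in the siNTC5 libraries. Over all genes, the TruSeq siNTC5 libraries differed more from each other than the other same-kit pairs of these 8 libraries. Chi-square of their counts per degree of freedom was 8.18, against 2.24 to 2.49 for the other pairs, a measure that also grows with depth. Within TruSeq libraries the log2 fold change was 1.68 ± 0.06 (SE) and within Ligation libraries 1.18 ± 0.06, each from 2 against 2 libraries. As shares, PHGDH in siHNRNPK was 318% of its siNTC5 mean in TruSeq libraries and 228% in Ligation libraries.

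PSAT1 showed the same arrangement, with 127 and 131 CPM in TruSeq controls, 200 and 186 CPM in Ligation controls, and 416 to 440 CPM in all knockdown libraries. Its log2 fold change was 1.76 ± 0.06 (SE) within TruSeq libraries and 1.12 ± 0.05 within Ligation libraries. Knockdown levels were 338% and 218% of the control mean of their kit.

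**Figure D2:**
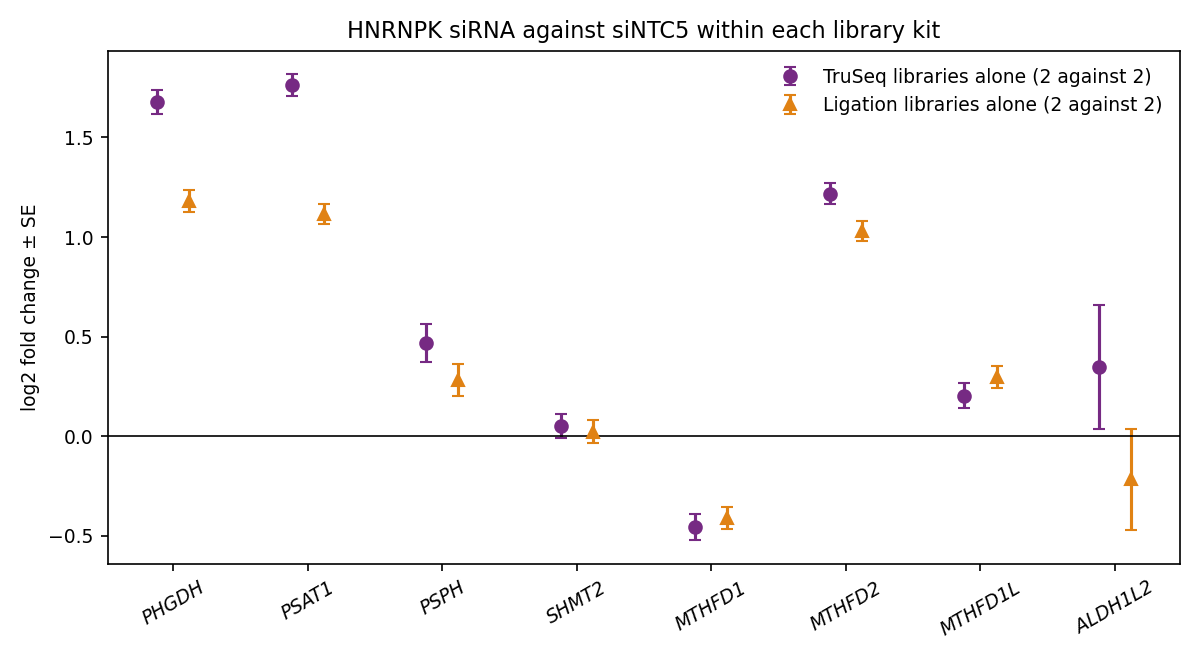
Log2 fold change with SE of the 8 tested members, HNRNPK siRNA against siNTC5, fitted within TruSeq libraries (circles) and within Ligation libraries (triangles), 2 against 2 each. PHGDH and PSAT1 lie higher in TruSeq (1.68 and 1.76) than in Ligation libraries (1.18 and 1.12), and the other members differ less between kits relative to their SE.

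The difference between the kits was tested as the interaction of treatment and kit in edgeR. It was called for 18 of 13933 genes, or 0.129%, PSAT1 and PHGDH among them. These 2 were selected on their rise in the same 8 libraries, so the test shares its data with the selection. The other 6 tested members were not called, and no share of members is read from this. PSAT1 had an interaction of -0.63 ± 0.07 (log2, SE, adjusted p 0.00037) and PHGDH -0.48 ± 0.08 (adjusted p 0.021), both meaning a smaller difference from siNTC5 in Ligation libraries. With the replicate number as a block, 66 genes were called, PSAT1 (adjusted p 0.00020) and PHGDH (adjusted p 0.013) among them, and leaving out single libraries moved the count to between 6 and 598, the highest without siNTC5 replicate 2. All 12 alternatives refit the same libraries, so they are not separate support. The call on PSAT1 was kept under all 12. That on PHGDH was lost when siNTC5 replicate 3 or 4, or siHNRNPK replicate 1, 2 or 3, was left out, with adjusted p values from 0.066 to 0.16.

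The remaining 6 tested members were not called for the interaction. MTHFD2 had -0.17 ± 0.07 (adjusted p 0.35 in edgeR) and PSPH -0.17 ± 0.12 (adjusted p 0.61). MTHFD1, MTHFD1L, SHMT2 and ALDH1L2 had adjusted p values of 0.64 to 0.98.

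In siNTC5 alone, 21.5% of genes were called between Ligation and TruSeq libraries. The selection of PHGDH and PSAT1 used these siNTC5 libraries too, so their adjusted p values here share data with it. PHGDH was higher with Ligation by 0.60 ± 0.06 (log2, SE, adjusted p 1.3e-05 in edgeR), PSAT1 by 0.58 ± 0.05 (adjusted p 5.7e-06) and MTHFD2 by 0.19 ± 0.05 (adjusted p 0.013). MTHFD1 was lower by this measure, at -0.28 ± 0.06 (adjusted p 0.0037). The call on MTHFD2 was lost without siNTC5 replicate 3 (adjusted p 0.12) and that on MTHFD1 without siNTC5 replicate 4 (adjusted p 0.063). SHMT2 was at -0.14 ± 0.07 and crossed the threshold without siNTC5 replicate 1 (adjusted p 0.0072) or with no filter on low counts (adjusted p 0.042). PSPH, MTHFD1L and ALDH1L2 were not called.

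The Scramble libraries are a second nontargeting control, and this comparison asks how the members stand against it. On the scale of all 10 libraries PHGDH was at 300 and 258 CPM in Scramble, above the 71.4 to 112 CPM of siNTC5 and at or above the top of the 228 to 258 CPM of siHNRNPK. PSAT1 was at 614 and 574 CPM in Scramble, above both siNTC5 (127 to 201 CPM) and siHNRNPK (413 to 441 CPM). MTHFD2 was at 831 and 812 CPM in Scramble, above siNTC5 (356 to 423 CPM) and around the low end of siHNRNPK (821 to 857 CPM). For these 3 genes siNTC5 was therefore the low group, and the knockdown libraries did not stand apart above Scramble.

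Against siNTC5, Scramble had log2 fold changes of 1.91 ± 0.07 (SE) for PHGDH and 2.15 ± 0.06 for PSAT1, given without a test. Both Scramble libraries are TruSeq, so with kit in the model these values rest on the TruSeq libraries of siNTC5. In edgeR 68.6% of 14263 genes were called in this comparison. Higher in Scramble were MTHFD2 by 1.14 ± 0.05 (adjusted p 1.2e-09), PSPH by 0.86 ± 0.08 (adjusted p 1.5e-06), MTHFD1L by 0.29 ± 0.06 (adjusted p 0.0015) and SHMT2 by 0.21 ± 0.06 (adjusted p 0.0084). MTHFD1 was lower at -0.70 ± 0.06 (adjusted p 8.1e-07), and ALDH1L2 was not called at -0.35 ± 0.27 (adjusted p 0.27). SHMT2 lost its call under upper-quartile scaling (adjusted p 0.095).

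With Scramble as the control, the knockdown libraries had a log2 fold change of -0.28 ± 0.06 (SE) for PHGDH and -0.44 ± 0.05 for PSAT1, again as a description. The share of genes called was 81.6% of 14217. PSPH at -0.44 ± 0.08 (adjusted p 4.9e-06 in edgeR) and SHMT2 at -0.20 ± 0.06 (adjusted p 0.0012) were lower in siHNRNPK, and MTHFD1 was higher at 0.20 ± 0.06 (adjusted p 0.0016). MTHFD2 differed by 0.03 ± 0.05 (adjusted p 0.56).

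MTHFD1L at -0.13 ± 0.05 (adjusted p 0.025) and ALDH1L2 at 0.64 ± 0.25 (adjusted p 0.022) passed in edgeR and not in DESeq2 (adjusted p 0.059 and 0.081). The call on MTHFD1L was also lost without siHNRNPK replicate 1 or 2 or Scramble replicate 1, and that on ALDH1L2 without siHNRNPK replicate 2 or Scramble replicate 2, with adjusted p values from 0.053 to 0.15. Upper-quartile scaling moved the median of all genes in this comparison from -0.04 to 0.14 on the log2 scale. It turned MTHFD1L to 0.05, ended the call on SHMT2 (adjusted p 0.75) and called MTHFD2 higher in siHNRNPK at 0.22 (adjusted p 7.7e-05). Relative to the median of all genes, MTHFD2 was 0.07 above it under either scaling. These comparisons share libraries with the first one, and siRNA, RNA purification, depth and count table differ together between Scramble and siNTC5, so they cannot be told apart.

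When the Scramble libraries were added to siNTC5 as controls, the difference of PHGDH was 0.73 and that of PSAT1 0.64 on the log2 scale. MTHFD2 was at 0.74 ± 0.28 (SE, adjusted p 0.049 in edgeR), and PSPH, MTHFD1L and MTHFD1 were no longer called, with adjusted p values of 0.74, 0.25 and 0.17.

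**Figure D3:**
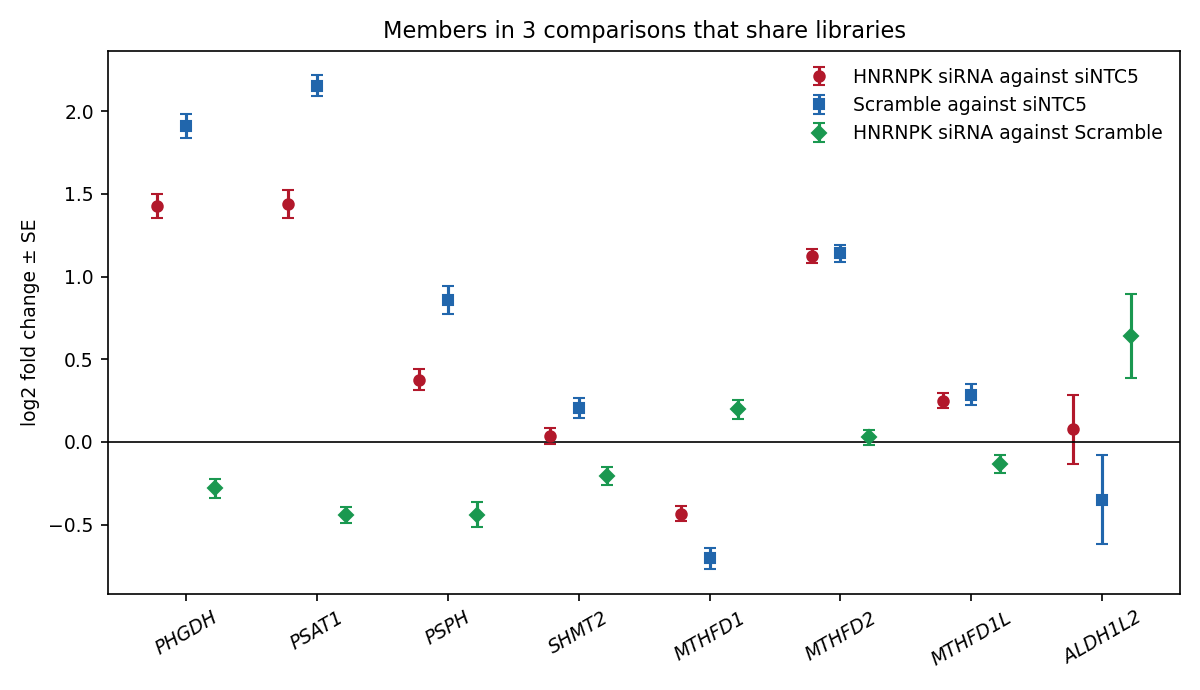
Log2 fold change with SE of 8 members in HNRNPK siRNA against siNTC5 (circles), Scramble against siNTC5 (squares) and HNRNPK siRNA against Scramble (diamonds), 3 comparisons that share libraries; SHMT1 is left out. PHGDH, PSAT1 and MTHFD2 are above 1 against siNTC5 in both of the first comparisons and between -0.44 and 0.03 against Scramble.

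The genes around the members were read from lists of 146 names. Each count below for HNRNPK siRNA against siNTC5 is set against the 71.5% of all genes called, 35.5% higher and 36.1% lower. The median log2 fold change of all genes tested was -0.004. Values of single genes are log2 fold changes of HNRNPK siRNA against siNTC5. Of 13 tested genes of the folate cycle and folate carriers, 2 rose and 9 fell, with a median of -0.45. SLC19A1, the reduced folate carrier, was at -0.67 and MTFMT, which formylates the mitochondrial initiator tRNA, at -0.58. In Scramble against siNTC5, by comparison, SLC19A1 was at 2.03.

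Of 7 tested genes of glycine cleavage and glycine use, 1 rose and 5 fell, with a median of -0.78. SARDH at -1.42, GCAT at -1.09 and GLDC at -1.07, the decarboxylase of the glycine cleavage system, were among those that fell, and DMGDH at 1.24 was the 1 that rose. Serine carriers moved both ways, with 5 of 11 higher, 5 lower and a median of 0.10. SLC38A2 at 1.06 and SLC38A1 at 0.65, neutral amino acid carriers of the plasma membrane, rose, and SFXN3, of the mitochondrial serine carrier family, fell, at -0.72, with SERINC2 at -0.67.

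Among 7 tested genes that use serine for lipids or sulfur amino acids, SPTLC1 rose (0.43) and PTDSS1 (-0.48) and SPTLC2 (-0.19) fell, and the other 4 were not called (median -0.19). The methionine cycle had 2 of 8 higher and 5 lower (median -0.44). MTRR, which reactivates methionine synthase, rose, at 1.03, while the synthase itself, MTR, fell, at -0.80, with MAT1A at -1.01 and AHCYL2 at -0.60. Of 6 genes of purine synthesis, which takes carbon from folate, 4 rose and 1 fell (median 0.23), led by GART at 0.91 and PFAS at 0.79, with ATIC at 0.24 and PPAT at 0.23. The glycolytic steps around 3-phosphoglycerate had 6 of 7 lower and 1 higher, with a median of -0.44: ENO2 was at -2.46, PGK1 at -0.56 and PGAM1 at -0.49, and ENO3 rose, at 0.72.

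The amino acid response list, of ATF4 and genes known to follow it, had 17 of 23 tested genes higher and 3 lower, with a median of 0.54. ATF3 at 2.34 ± 0.07 (SE), DDIT3 at 1.84 ± 0.10, CHAC1 at 1.71 ± 0.33 and SLC7A11 at 1.63 ± 0.12 were its largest called changes. The interaction with kit was called for 18 of all 13933 genes (0.129%). Of the 23 genes of this list 3 were called, all negative: CHAC1 at -2.88, SLC7A11 at -0.98 and TRIB3 at -0.73. How these 3 calls stand with single libraries left out is not reported here. CHAC1 and SLC7A11 rose less in Ligation than in TruSeq libraries. TRIB3 in siHNRNPK was at 148% of its siNTC5 mean in TruSeq libraries and at 89.5% in Ligation libraries. CHAC1, a glutathione-degrading enzyme, was at 3.68 and 3.55 CPM in TruSeq controls, 37.9 and 30.7 CPM in Ligation controls and 40.7 to 53.9 CPM in the knockdown libraries, an order like that of PHGDH and PSAT1. In Scramble against siNTC5, 24 of the 25 tested genes of this list were called higher (median 1.62, all genes 0.003), beside 5009 of all 14263 genes. In siHNRNPK against Scramble, 21 of 25 were called lower (median -0.95, all genes -0.04), beside 6082 of 14217. Both lists of calls include SESN2, at 0 CPM in every siNTC5 library and 166 and 172 CPM in Scramble, and ASNS, described below. The part of separate counting in these calls was not tested.

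The cytosolic tRNA synthetases, several of which ATF4 is also known to induce, had 14 of 20 higher and 3 lower (median 0.45). MARS1 was at 1.25, AARS1 at 1.17 and GARS1 at 0.95, and VARS1 at 2.08 rested on under 1.4 CPM in every library. Only 2 of the 20 names were shared with the Scramble tables, so the list was not compared there.

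**Figure D4:**
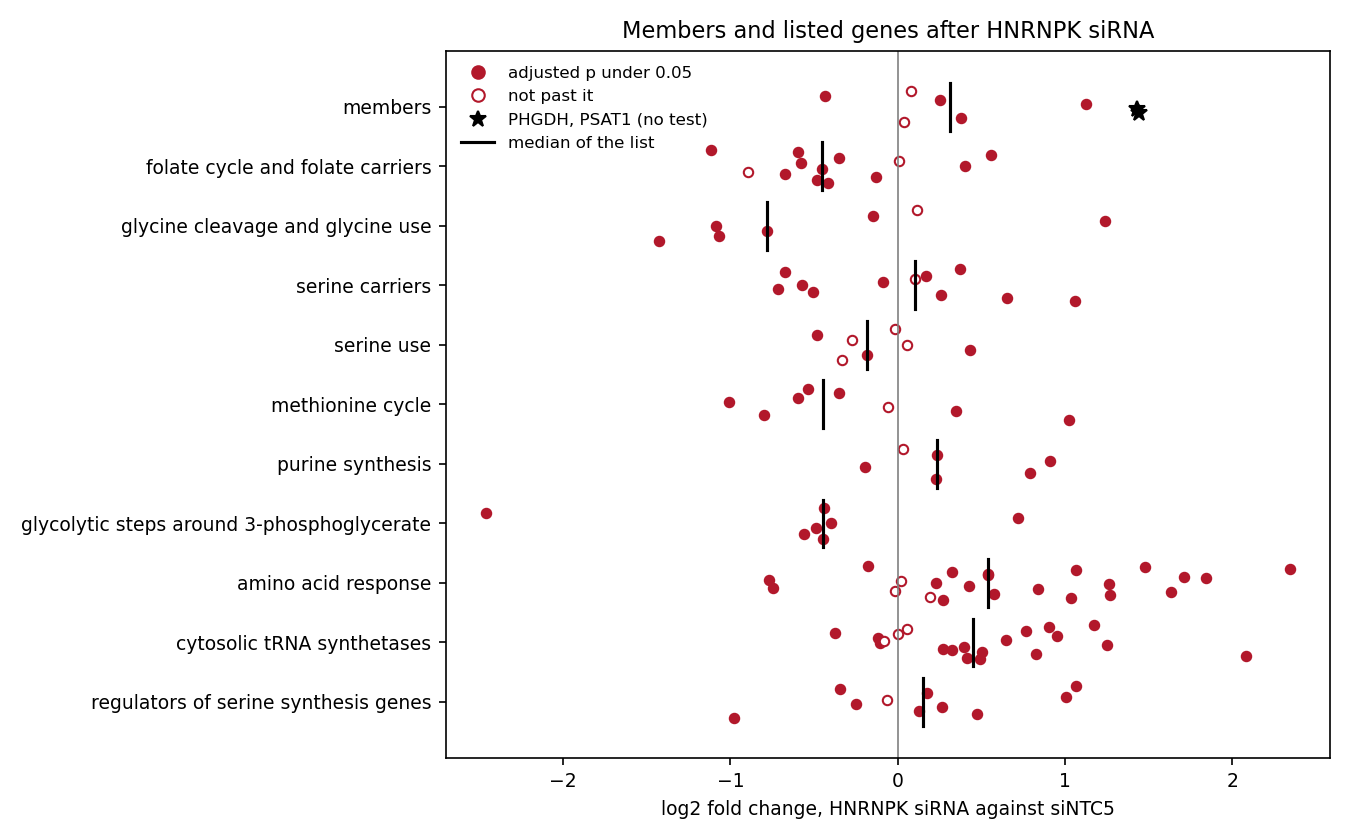
Log2 fold change after HNRNPK siRNA against siNTC5 of each tested gene (points) by list, with the median of the list as a line; filled points passed an adjusted p of 0.05 in edgeR, open points did not, and stars are PHGDH and PSAT1, which have no test. The medians run from -0.78 for glycine cleavage and glycine use to 0.54 for the amino acid response.

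Of 10 tested regulators of serine synthesis genes, 6 rose and 3 fell. ATF4 was at 382, 388, 498 and 471 CPM in siNTC5 and at 914, 877, 907 and 914 CPM in siHNRNPK, or 1.06 ± 0.05 higher (log2, SE; adjusted p 3.8e-12 by edgeR). It was at 894 and 860 CPM in Scramble on the scale of all 10 libraries, and with Scramble added as controls its adjusted p was 0.059. EIF2AK3, the kinase PERK upstream of ATF4, was at 1.01, NFE2L2 at 0.47 and MYC at 0.13 (adjusted p 0.013). ATF4 thus shared with PHGDH, PSAT1 and MTHFD2 a level that was low in siNTC5 and high in the other groups.

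The genes most like PHGDH over the 8 libraries, among 9995 with an average log2 CPM of at least 3, were AARS1 (Pearson r 0.998), ARG2, DDIT3, PABPC1L and GARS1 (r 0.996 for the last). Those most like PSAT1 were SLC7A11 and ATF4 (both 0.997 when rounded), PHGDH, GARS1 and DDIT3 (r 0.994 for the last). AARS1 went from 234 to 342 CPM in siNTC5 to 595 to 718 CPM in siHNRNPK, and ARG2 from 5.89 to 8.79 CPM to 15.2 to 18.6 CPM. These are descriptions of likeness over libraries that share treatment and kit.

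For lamin B1, H3K9me2, H3K9me3 and H3K27me3, 1 deposited domain list per antibody and siRNA was used, with control siRNA alone for H3K9me2 and with coordinates matching the hg38 named in the submitters' processing notes. Domains of this kind are broad stretches of silent or lamina-associated chromatin. None of the 9 gene bodies lay in a domain of any control list, where 9.1% to 22.7% of 26998 placed genes lay by at least 50% of their body. In the HNRNPK siRNA lists, the SHMT2 body lay entirely in a lamin B1 domain of 95 kb at chr12:57155001-57250000, which held a score of 0.58 in the deposited list. In that list 9.2% of placed genes lay inside a domain, so 1 of 9 members is near the background share. The nearest control lamin B1 domain was 1595 kb away. In the same siRNA contrast SHMT2 RNA was not called, at 0.04 ± 0.05 (log2, SE).

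MTHFD1L overlapped an H3K9me3 domain (chr6:151050001-151235000) of the HNRNPK siRNA list with 21.97% of its body. PHGDH lay 21.9 kb from the nearest H3K27me3 domain in both lists, and PSAT1 39.9 kb from it in the control list and 44.9 kb in the HNRNPK siRNA list. With 1 list per antibody and siRNA, these positions have no replicate check.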

How the data were processed

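Raw counts per gene symbol in whole numbers were deposited for 10 RNA libraries. STAR 2.7.1a, featureCounts and hg38 are named in the submitters' processing notes, Subread 2.0.6 for the 8-library table, and hg19 beside hg38 for the Scramble tables; annotation and strand are not given in the sources used here. Each domain carries a score as deposited by the authors; the notes name Bowtie2 2.5.1 and deepTools 3.1.3, and the domain caller and pooling are not given. Counts were tested in edgeR 4.0.16 (R 4.3.3; filterByExpr, TMM, quasi-likelihood, kit and treatment, two-sided, Benjamini-Hochberg) and in DESeq2 1.42.0 as an alternative. The Scramble comparisons used the 25527 shared names. Same-numbered libraries deviated together from their group means with r of 0.10, 0.42, 0.34 and 0.27, and with r of -0.19, -0.16, -0.28 and -0.25 after kit. Fitting kit and treatment itself makes the residuals of such pairs run against each other, so the values after kit do not measure pairing. On simulated data with no kit effect the fit recovered 186 of 195 altered genes of 13806, with 6 false calls. In the knockdown comparison 71.5% of genes were called, so the simulation does not test the fit or its scaling in that setting. Members and lists were chosen with earlier results of these data known. Genes were named by a rule. It took all members, HNRNPK, ATF4, NFE2L2 and MYC, up to 4 largest called changes per list, and the 5 most like PHGDH and PSAT1. TRIB3 and SESN2 were added after their values were seen. RefSeq positions matched 95.5% of names. Values of some listed genes are not reported here, though the counts over their lists include them.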

Additional observations from a re-analysis of the deposited data

Results flagged for a closer look

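The effect of HNRNPK siRNA differed between the library kits for PHGDH, with an interaction of -0.48 on the log2 scale, and for PSAT1, with -0.63. Both passed the adjusted threshold of the interaction test in edgeR, and both were selected on their rise in the same libraries. No tested member had a siNTC5 or siHNRNPK library far enough from the other 3 of its group to pass the critical gap of Dixon's test. Each group pools both kits. Where values split by kit, as for PHGDH and PSAT1 in siNTC5, this check can hardly flag a library. SHMT1, with 1 count over the 8 libraries, was left out of this check.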

How the results depend on the processing

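The knockdown comparison called 2195 of 13933 genes when a log2 fold change of at least 1 in size was also asked for. Without it 9968 were called. Under this rule 1 of the 7 members not chosen for their rise was called (4 without it) and 22 listed genes (94 without it). With Scramble added as controls 1 of the 7 and 40 listed genes were called. The interaction, 18 genes in the fit reported, gave 65 in DESeq2, 239 with no filter on low counts and 66 with a replicate block, and from 6 to 598 when single libraries were left out (364 without siNTC5 replicate 1, 598 without siNTC5 replicate 2). Ligation against TruSeq in siNTC5 gave from 1062 to 4460 in the same way (2994 reported). The replicate block and the leave-outs of these last comparisons were chosen after seeing the data, and the block changed no call on a member. Any overlap in place of 50% put 2 gene bodies in a domain (1 reported).

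Changes of sign came where the value was not called or, for MTHFD1L, under another scaling. After HNRNPK siRNA, SHMT2 turned to -0.0351 with Scramble added and ran from -0.0155 (without siHNRNPK replicate 4) to 0.0732 with single libraries left out. ALDH1L2 turned to -0.22 in Ligation libraries and ran from -0.0935 (without siNTC5 replicate 1) to 0.216. In the interaction, single libraries left out gave -0.13 to 0.0943 for SHMT2 and -0.0493 to 0.126 for MTHFD1. In Scramble against siNTC5 they gave -0.64 (called, without siNTC5 replicate 1) to 0.109 for ALDH1L2. Against Scramble, MTHFD2 turned to -0.0296 with no filter on low counts and MTHFD1L to 0.0526 under upper-quartile scaling. Of the values of single members under alternatives, 433 were unchanged, 19 lost a call, 4 gained one, 13 changed sign and 27 moved. Unchanged means the same direction and call. For PHGDH and PSAT1, where no test was given, it means a shift within the SD between libraries of the same group and kit. Larger shifts of these genes are the ones that moved. After HNRNPK siRNA against siNTC5 these were 7 of 17 values for PHGDH and 10 of 17 for PSAT1, all still positive. Where a call was lost, the cause was not tested. ALDH1L2, with under 80 counts in each siNTC5 and siHNRNPK library, is limited by depth in the 8-library table.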

Other observations

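ASNS, asparagine synthetase and an ATF4 target, was noticed after the values were seen. It had 37, 54, 94 and 97 counts in siNTC5, 131, 146, 136 and 134 counts in siHNRNPK, and 45885 and 38826 counts in Scramble. On the scale of all 10 libraries that is 2.19 to 6.30 CPM, 8.62 to 11.4 CPM and 919 and 842 CPM. The order of the groups is that of PHGDH and PSAT1, and the gap to Scramble is of another size. Like SHMT1, it was counted in separate tables, and the part of counting in that gap was not tested.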
